A study of Mus musculus with 62 samples.

Results

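The 10 chemokine genes described here were followed in the diaphragm, the main breathing muscle, of mice carrying a melanoma xenograft or none: the CC ligand genes Ccl8, Ccl2, Ccl7, Ccl11 and Ccl12 and the CXC ligand genes Cxcl13, Cxcl12, Cxcl14, Cxcl1 and Cxcl5. They are 10 of the 47643 genes in the deposited expression table, and they were found there by symbol. The list was drawn up with results of these data known, and Ccl8 was selected on its rise in cachectic over control mice at 8 weeks, so the values of the 10 genes at 8 weeks are described below with no test between groups. Tests of the 10 genes compare mice of 2, 4 and 6 weeks, and other genes are tested at 8 weeks too. The main tests estimate the spread from all mice, those of 8 weeks included.

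Cachectic mice (CAC) carried a patient-derived melanoma xenograft that causes muscle wasting, non-cachectic mice (NCAC) carried another melanoma xenograft that does not, and control mice (Con) received a mock injection of saline. Each tumor group is 1 xenograft line, so the tumor line and the wasting cannot be told apart. Diaphragms were taken after 2, 4, 6 and 8 weeks from females labelled 2 months old, 5 mice per group and time and 7 CAC mice at 8 weeks, 62 in all, with 1 RNA-seq library each. The strain label reads C57BL6/J, whereas the study's methods give athymic nude hosts, a background that lacks T cells and keeps B cells and myeloid cells. Values are TPM (a transcript abundance), an expression level corrected for transcript length and scaled to the same total in every library. The number of reads behind them is unknown. The main p-values rest on the spread between mice of the same group and time, pooled over all groups and times.

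Chemokines are small secreted proteins that guide white blood cells along a gradient by binding receptors on their surface, and some also hold resident cells in place. The CC and CXC families differ in the spacing of their first cysteines. Muscle makes them through several cell types, among them macrophages, fibro-adipogenic progenitors (the connective tissue cells of muscle) and endothelium, and after injury Ccl2 and its relatives draw monocytes from the blood.

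Libraries that stood apart bear on many of the values. The TPM of 4 libraries (CAC at 2 weeks replicates 3 and 4, NCAC at 2 weeks replicate 5, CAC at 8 weeks replicate 3) were spread over 15069 to 16389 genes above 0, against 17909 to 19057 in the other 58, and mitochondrial transcripts took 54.4% to 61.5% of their TPM against 32.5% to 50.1%. These are called few-gene libraries below. In 4 others (Con at 2 weeks replicates 2, 4 and 5, CAC at 6 weeks replicate 5) a list of 10 liver genes summed to 5737 to 24999 TPM, against a median of 88.7 and at most 3480 in the rest. The 8 defining genes of skeletal muscle summed to 38246 to 90745 TPM across the libraries, as the tissue label states. No pair of libraries held identical values.

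By genome build GRCm38 and the GENCODE annotation, the 5 CC genes lie side by side on the plus strand of chromosome 11, in the order Ccl2, Ccl7, Ccl11, Ccl12 and Ccl8, within 81229 bases from 82035571 to 82116799. Ccl8 spans 82115185 to 82116799 and Ccl12 82101845 to 82103400. The CXC genes Cxcl5, Cxcl1 and Cxcl13 are on the plus strand of chromosome 5, Cxcl5 from 90759360 to 90761624, Cxcl1 from 90891241 to 90893115 and Cxcl13 from 95956951 to 95961068. Cxcl12 is on the plus strand of chromosome 6 from 117168535 to 117181367, and Cxcl14 on the minus strand of chromosome 13 from 56288643 to 56296551. All 10 are protein-coding genes. Although the CC genes are close relatives, no stretch of 50 bases in the annotated transcripts of Ccl8, Ccl12 or any of the other 7 genes besides Cxcl5 was also found, on either strand, in the transcripts of another gene. For Cxcl5, 13 of 1876 such stretches were (0.693%). The shortest read that the study kept was of 50 bases.

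RefSeq promoter windows were given for 6 of the 10 genes (Ccl8, Ccl12, Cxcl1, Cxcl13, Cxcl12 and Cxcl14). The 250 bases before the start of transcription are shown for the neighbours Ccl8 and Ccl12, the CC genes whose tests passed at 6 weeks, and for Cxcl1, which held the most motif matches of 1 kind. They are written 5′ to 3′ in GRCm38.p6 with motif matches in capitals. The windows are chr11:82114935-82115184 (plus strand) for Ccl8, chr11:82101595-82101844 (plus strand) for Ccl12 and chr5:90890995-90891244 (plus strand) for Cxcl1.
Ccl8: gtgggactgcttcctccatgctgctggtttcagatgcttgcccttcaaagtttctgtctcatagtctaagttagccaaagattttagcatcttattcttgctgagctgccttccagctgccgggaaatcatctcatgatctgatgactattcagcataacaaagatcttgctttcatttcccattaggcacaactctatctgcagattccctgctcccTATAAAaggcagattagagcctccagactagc
Ccl12: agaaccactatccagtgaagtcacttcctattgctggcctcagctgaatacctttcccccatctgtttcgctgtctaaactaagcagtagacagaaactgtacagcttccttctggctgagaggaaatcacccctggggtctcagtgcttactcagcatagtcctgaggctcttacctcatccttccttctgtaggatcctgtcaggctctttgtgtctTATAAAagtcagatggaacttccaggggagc
Cxcl1: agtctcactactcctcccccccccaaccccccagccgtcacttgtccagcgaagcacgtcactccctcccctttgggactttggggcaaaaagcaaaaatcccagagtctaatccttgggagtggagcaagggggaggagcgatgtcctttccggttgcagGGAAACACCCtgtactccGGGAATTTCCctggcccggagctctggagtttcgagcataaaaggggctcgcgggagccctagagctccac
The motifs searched, on both strands, were the TATA box (present in 13% of 27025 windows of the same length), the NF-kB consensus (1.40%), TTCNNNGAA (STAT, 7.18%), TTGCNNAA (C/EBP, 9.55%) and the AP-1 site TGANTCA (6.87%). The TATA box was searched as TATAAA. Ccl8 and Ccl12 each held a TATA box, starting at position -32 and -31 from the start, and none of the other letters. Their windows had 150 identical bases in a global alignment, or 60% of 250, while the other 14 pairs among the 6 windows had 47.2% to 54.0%. Cxcl1 held the NF-kB letters in a pair of places. The window of Cxcl13 held a TATA box and a C/EBP match, that of Cxcl14 a STAT match and that of Cxcl12 none. A match is a run of letters, not a measured binding site.

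In control diaphragms the 10 genes spanned a wide range of levels. Cxcl12, which retains stem cells and lymphocytes through the receptor Cxcr4, was highest with a median of 70.4 TPM over 20 control mice (lowest 55.8, highest 93.9). Ccl11 (eotaxin, an attractant of eosinophils) had 27.3 TPM (22.7 to 35.8) and Cxcl14, an evolutionarily old CXC ligand, 25.2 TPM (13.8 to 40.6), and the ranges of these 2 genes overlapped. Cxcl13, the B cell attractant that organizes lymphoid follicles, followed with a median of 6.00 TPM, but its control mice ran from 0.932 to 82.8 TPM. Ccl8, Ccl2, Ccl12 and Ccl7 had medians of 1.70, 1.55, 1.46 and 1.42 TPM with ranges that overlapped throughout. Cxcl1, a neutrophil attractant, had 0.959 TPM and Cxcl5, another ligand of the neutrophil receptor Cxcr2, 0.0519 TPM. Cxcl5 was listed at 0 in 9 of the 62 mice and reached 1 TPM in 1 mouse, so it did not pass the filter used for testing (at least 1 TPM in at least 5 mice), and the other 9 genes did.

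Between mice of the control group the coefficient of variation was 13.2% for Cxcl12, 14.8% for Ccl11 and 25.9% for Cxcl14. It was 47.0% to 56.7% for Ccl12, Ccl7, Ccl2, Ccl8 and Cxcl1 and 143% for Cxcl13.

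Ccl8, which in mice attracts cells through the receptor Ccr8, was higher in cachectic than in both other groups at 6 weeks, and its values in CAC mice lay apart from them from 4 weeks on. Its median in CAC mice was 1.73 TPM at 2 weeks, 7.49 TPM at 4 weeks, 26.5 TPM at 6 weeks and 43.1 TPM at 8 weeks. The medians of the control mice at the same times were 1.97, 1.06, 2.06 and 1.89 TPM, and those of NCAC mice 1.71, 1.24, 2.25 and 1.12 TPM.

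At 6 weeks the 5 CAC mice had 11.2, 26.6, 37.2, 10.9 and 26.5 TPM of Ccl8. The 5 control mice had 4.75, 1.86, 2.06, 2.36 and 0.663 TPM, and the NCAC mice 1.44, 2.60, 2.25, 8.96 and 0.397 TPM. Every CAC mouse was above every mouse of the other groups. The mean was 22.5 ± 11.3 TPM (SD, n = 5) against 2.34 ± 1.5 in control mice and 3.13 ± 3.37 in NCAC mice. On the log2(TPM + 1) scale, which understates the change of genes near 1 TPM, the difference from control was 2.77 ± 0.64 (SE), with a limma adjusted p of 0.00354 over the 13578 genes tested. The difference from NCAC mice was 2.68 ± 0.64 (adjusted p = 0.00543 by limma).

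At 4 weeks the CAC mice had 7.49, 12.1, 4.49, 11.3 and 5.73 TPM of Ccl8, the control mice 0.968 to 1.17 TPM and the NCAC mice 0.790 to 1.87 TPM. The groups did not overlap here either. The difference from control was 2.07 ± 0.64 and that from NCAC mice 1.92 ± 0.64, with raw limma p of 0.00201 and 0.00389 and adjusted p of 0.349 and 0.462, so neither passed. The exact two-sided permutation test gave p = 0.00794 for both, which is the smallest p that 5 against 5 mice allow, unadjusted and among 81 such tests of single genes. Without the 4 few-gene libraries, none of which was taken at 4 weeks, the shared estimate of the spread was smaller and the adjusted p by limma was 0.0157 against control and 0.0217 against NCAC mice. Calls rose over the whole table in that fit. Against control they went from 2 higher and 1 lower to 207 and 44, and against NCAC mice from 4 and 0 to 255 and 48. The fit of the compared groups alone gave limma adjusted p of 0.00696 and 0.0126.

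At 2 weeks Ccl8 in CAC mice (1.5 to 5.71 TPM) overlapped with control (0.912 to 2.38 TPM), and the highest 2 values, 5.71 and 4.66 TPM, came from the 2 few-gene libraries. The NCAC mouse whose library had few genes stood at 70.3 TPM, beside 0.293 to 1.72 TPM in the other 4. At 8 weeks, the time that selected the gene, the CAC mice had 14.6, 230.0, 92.4, 18.9, 52.8, 6.13 and 43.1 TPM and the control mice 1.10 to 2.99 TPM. The difference in mean log2(TPM + 1) was 3.67 from control and 3.75 from NCAC mice.

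Ccl12 was also called higher in cachectic diaphragms at 6 weeks, and Cxcl14 had higher values there that did not pass the test over all genes. Ccl12, a mouse relative of Ccl2 that attracts monocytes through Ccr2, had 5.65, 2.89, 4.57, 9.88 and 7.32 TPM in CAC mice. Control mice had 0.787, 2.14, 1.86, 2.71 and 1.35 TPM and NCAC mice 0.683, 2.47, 2.43, 2.93 and 1.23 TPM. All CAC mice were above all control mice, and 4 of 5 were above all NCAC mice. The mean was 6.06 ± 2.68 TPM (SD, n = 5) against 1.77 ± 0.74 in control mice.

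For Ccl12 the difference in log2(TPM + 1) was 1.31 ± 0.39 (SE) from control (limma adjusted p = 0.0278) and 1.24 ± 0.39 from NCAC mice (adjusted p = 0.0425). Both calls were marginal. Against control the call was lost without CAC replicate 1, 4 or 5 or Con replicate 1 or 5 (limma adjusted p from 0.0551 to 0.0971), and against NCAC mice without CAC replicate 1, 3, 4 or 5 or NCAC replicate 1, 2, 3 or 5 (0.050 to 0.146). Without the 4 few-gene libraries both calls of Ccl12 held (limma adjusted p = 0.00212 and 0.00374), and without the 4 liver-gene libraries both were lost (0.0605 and 0.0859). Both were also lost under median-ratio scaling (0.163 and 0.182) and quantile normalization (0.129 and 0.138), and that against NCAC mice with a pseudocount of 0.1 (0.0681) and with no filter (0.0643). At 8 weeks Ccl12 had 2.48, 11.8, 18.7, 5.26, 6.06, 2.05 and 3.95 TPM in CAC mice and 0.853 to 2.94 TPM in control mice, which overlapped, and the 18.7 TPM came from the few-gene library.

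Cxcl14 had 72.1, 50.7, 90.4, 67.2 and 41.8 TPM in CAC mice at 6 weeks. Control mice had 17.5, 30.9, 26, 40.6 and 26.3 TPM and NCAC mice 29.0, 23.2, 20.7, 28.6 and 25.9 TPM. Each CAC mouse was above each mouse of both other groups. The mean was 64.4 ± 19.0 TPM (SD, n = 5) against 28.3 ± 8.40 and 25.5 ± 3.57 TPM. The differences of 1.16 ± 0.44 and 1.27 ± 0.44 (SE) in log2(TPM + 1) did not pass over all genes (limma adjusted p = 0.101 and 0.0747).

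Cxcl14 was low in the few-gene libraries, which entered the shared estimate of the spread. They had 9.90 and 9.14 TPM in CAC mice at 2 weeks, 10.8 TPM in the NCAC mouse at 2 weeks and 3.25 TPM in the CAC mouse at 8 weeks, the lowest values of their groups. Without them the standard error fell to 0.23, and limma gave adjusted p of 0.000198 against control and 6.49e-05 against NCAC mice. That fit also called 3651 of all 13578 genes higher and 582 lower against control, and 2996 and 704 against NCAC mice. At 4 weeks CAC mice had 32.7, 59.3, 23.9, 70.4 and 23.5 TPM, and the highest 2 of them lay above all 5 control mice (21.7 to 36.3 TPM). At 8 weeks 6 of the 7 CAC mice had 56.4 to 114 TPM, above the control mice (21.2 to 35.0 TPM) and the NCAC mice (14.5 to 31.4 TPM), and the few-gene library had 3.25 TPM.

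**Figure D1:**
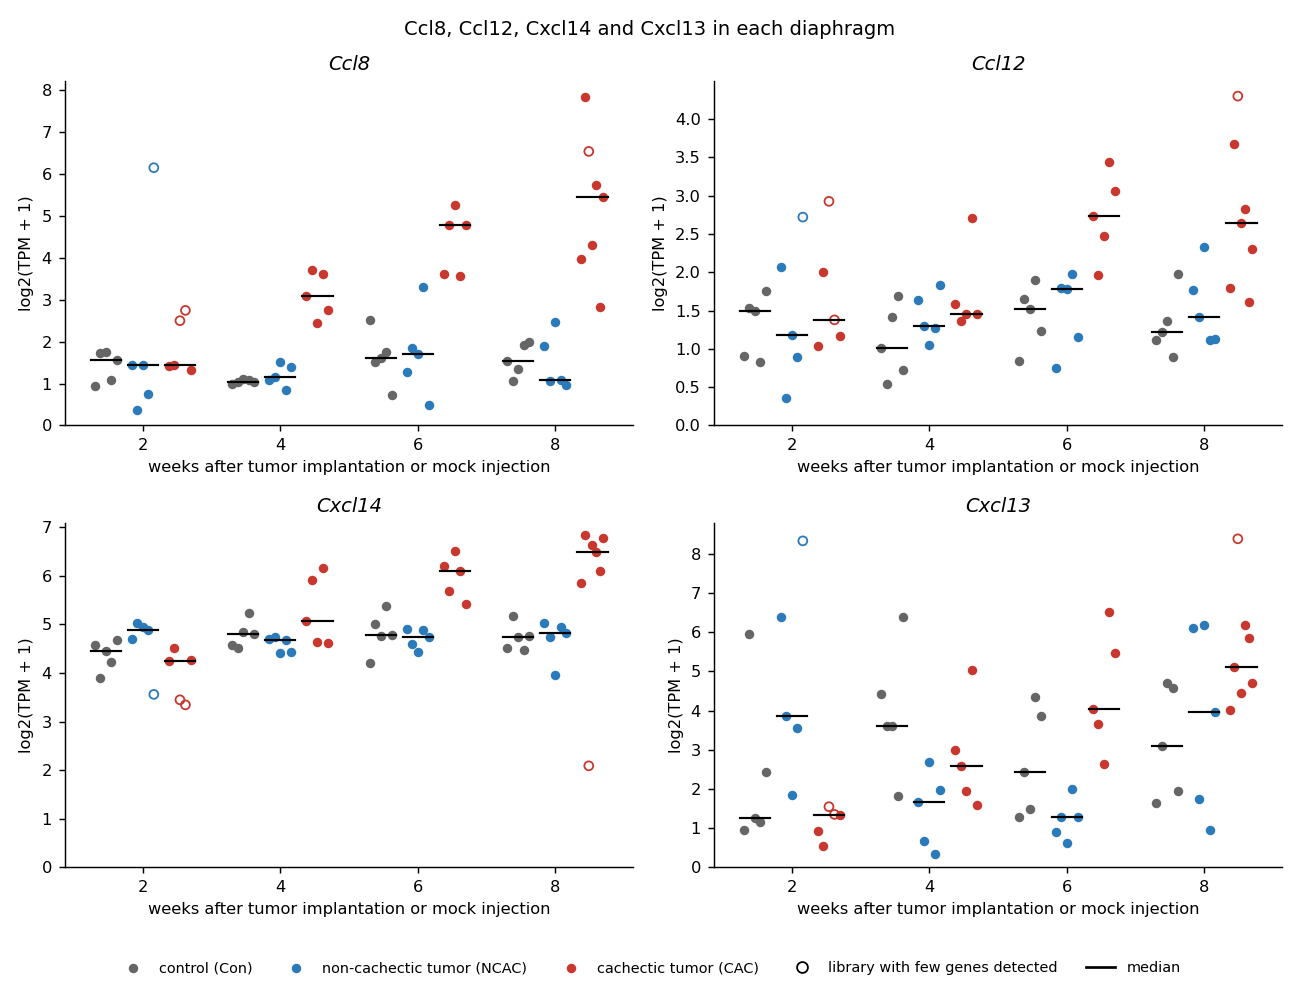
Ccl8, Ccl12, Cxcl14 and Cxcl13 in each of the 62 diaphragms, as log2(TPM + 1), against weeks after implantation or mock injection, with control mice in grey, NCAC in blue, CAC in red, group medians as black bars and the 4 few-gene libraries as open circles. Ccl8 lies above both other groups in all CAC mice from 4 weeks on, Ccl12 and Cxcl14 lie above control in all CAC mice at 6 weeks, and Cxcl13 is scattered in every group.

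Cxcl13 varied widely between mice of the same group. At 6 weeks CAC mice had 15.4, 11.7, 5.23, 91.1 and 43.6 TPM, control mice 1.42, 4.39, 1.79, 19.2 and 13.6 TPM and NCAC mice 0.866, 1.42, 0.545, 3.00 and 1.45 TPM. CAC and control mice overlapped, and all CAC mice were above all NCAC mice. The difference from NCAC mice was 3.25 ± 0.99 (SE) in log2(TPM + 1) with a limma adjusted p of 0.0354. That from control was 1.79 ± 0.99 (limma adjusted p = 0.311).

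The call of Cxcl13 against NCAC mice was marginal too. It was lost without CAC replicate 1, 4 or 5 or NCAC replicate 1, 2, 3 or 5 (limma adjusted p from 0.0634 to 0.133), and held without the 4 few-gene libraries (0.00679). It was also lost without the 4 liver-gene libraries (limma adjusted p = 0.0617), with no filter (0.0554), under median-ratio scaling (0.0604) and by Dunn's test (0.117). At 2 weeks the order of the groups was the other way round. NCAC mice had 82.4, 13.5, 2.58, 10.8 and 321 TPM and CAC mice 0.451 to 1.93 TPM, without overlap, a difference of -3.66 ± 0.99 that did not pass over all genes (adjusted p = 0.345 by limma). At 4 weeks control mice had 2.54 to 82.8 TPM, CAC mice 2.00 to 32.0 TPM and NCAC mice 0.263 to 5.45 TPM. At 8 weeks CAC mice had 15.2, 33.4, 333, 21.0, 72.0, 56.7 and 24.9 TPM, beside 2.15 to 25.2 TPM in control and 0.947 to 71.5 TPM in NCAC mice, and the 333 TPM came from the few-gene library.

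Of the 9 genes tested at 6 weeks, 2 were called higher in CAC than in control mice (Ccl8 and Ccl12) and 0 lower, where 5.62% of all genes tested were called higher and 1.17% lower. Dunn's test called 0 of the 9, with 2 at an unadjusted p under 0.05 (Ccl8 and Ccl12). The median difference of the 9 was 0.38 in log2(TPM + 1), and that of all genes 0.17, a shift in the whole table that a scaling by median ratios removed (0.01). Under that scaling the difference of Ccl8 was 2.58 (limma adjusted p = 0.0209), that of Ccl12 1.14 (0.163) and that of Cxcl14 0.97 (0.0656). Against NCAC mice, 3 of 9 were called higher at 6 weeks (Ccl8, Ccl12 and Cxcl13) and 0 lower, beside 4.28% and 1.57% of all genes. Dunn's test called 0 here as well, with 4 at an unadjusted p under 0.05 (Ccl8, Ccl12, Cxcl13 and Cxcl14).

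At 4 weeks limma called 0 of the 9 genes in CAC against control mice, with 1 at an unadjusted p under 0.05 (Ccl8) and 0 called by Dunn's test. Of all genes, 0.0147% were called higher and 0.00736% lower. Against NCAC mice limma called 0 at 4 weeks, with 2 at an unadjusted p under 0.05 (Ccl8 and Cxcl1) and 0 by Dunn's test, where 0.0295% of all genes were called higher and 0% lower. The change of the difference between CAC and control mice from 4 to 6 weeks was called for 0 of the 9 genes and for 0% of all genes by limma, with 1 of the 9, Cxcl13, at an unadjusted p under 0.05 (this contrast has no Dunn's test). For Ccl8 this change was 0.70 with a 95% confidence interval from -1.10 to 2.51, so the rise between the 2 times in the medians was not resolved by this contrast.

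At 2 weeks 1 of the 9 genes was called lower in CAC than in control mice (Cxcl12) and 0 higher, among 27.8% of all genes lower and 1.41% higher. Cxcl12 had 63.3, 54.7, 19.3, 20.2 and 68.2 TPM in CAC mice, and its 2 low values were the 2 few-gene libraries. Control mice had 55.8 to 75.5 TPM. The difference was -0.79 ± 0.26 (limma adjusted p = 0.0269), and without the few-gene libraries -0.15 (0.799). The call was also lost without CAC replicate 3 or 4 alone or Con replicate 2, 4 or 5 alone (limma adjusted p from 0.0510 to 0.217). CAC against NCAC mice at 2 weeks gave 0 calls among the 9 genes and 0% of all genes by limma, with 1 gene of the 9 at an unadjusted p under 0.05 (Cxcl13) and 0 by Dunn's test.

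In the mice whose tumor caused no wasting, no call was made. NCAC against control mice gave 0 called genes at 2, 4 and 6 weeks by limma and by Dunn's test, with 2, 1 and 1 at an unadjusted p under 0.05 in limma. In limma these were Cxcl13 and Cxcl12 at 2 weeks, Cxcl13 at 4 weeks and Ccl11 at 6 weeks. Of all genes, 4.43% were called in either direction at 2 weeks, 0% at 4 weeks and 0% at 6 weeks. Ccl11 had 26.5 to 48.6 TPM in NCAC mice at 6 weeks and 22.7 to 25.4 TPM in control mice, without overlap, a difference of 0.47 (adjusted p = 1.00).

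**Figure D2:**
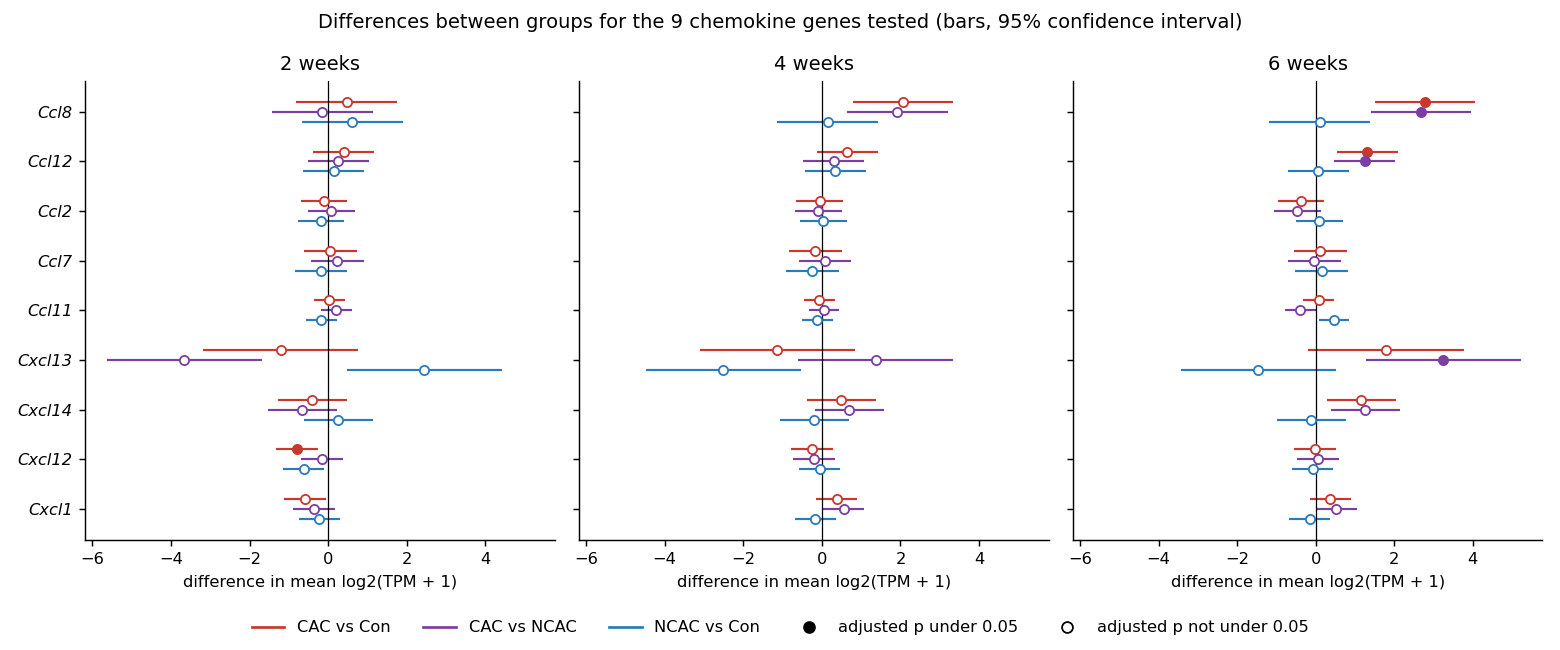
Differences in mean log2(TPM + 1) for the 9 tested genes at 2, 4 and 6 weeks, for CAC against control (red), CAC against NCAC (purple) and NCAC against control mice (blue), with the unadjusted 95% confidence interval as a bar and filled circles where the adjusted p was under 0.05. The filled circles are Ccl8 and Ccl12 at 6 weeks in both CAC comparisons, Cxcl13 at 6 weeks against NCAC, and Cxcl12 at 2 weeks against control.

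The remaining CC genes of the chromosome 11 cluster did not share the course of Ccl8. Ccl2, the chief attractant of inflammatory monocytes, had 0.494, 0.709, 0.392, 1.49 and 1.32 TPM in CAC mice at 6 weeks and 0.882 to 1.94 TPM in control mice, a difference of -0.37 in log2(TPM + 1) (95% confidence interval from -0.97 to 0.22). Ccl7, another ligand of Ccr2, had 0.702 to 1.81 TPM in CAC and 0.462 to 1.45 TPM in control mice, and Ccl11 18.5 to 31.6 TPM and 22.7 to 25.4 TPM. Their differences were 0.11 (from -0.56 to 0.78) and 0.08 (from -0.31 to 0.47). At 8 weeks Ccl2 ran from 0.140 to 5.64 TPM among the 7 CAC mice and Ccl7 from 0.362 to 7.18 TPM, both wider than in control mice (0.941 to 2.24 and 0.891 to 1.91 TPM), with the few-gene library highest for both.

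Cxcl12 and Cxcl1 were not called at 4 or 6 weeks. Cxcl12 had 62.4 to 81.3 TPM in CAC mice at 6 weeks and 63.1 to 86.1 TPM in control mice, a difference of -0.02 (95% confidence interval from -0.55 to 0.51). Cxcl1 had 0.643 to 1.63 TPM in 4 CAC mice at 6 weeks and 4.67 TPM in the mouse whose library held liver genes, beside 0.685 to 1.16 TPM in control mice, and its difference was 0.38 (from -0.15 to 0.90). The deviation of Cxcl1 from the mean of its group and time had r = 0.70 with the summed liver genes over the 58 mice outside the few-gene libraries, and 0.49 over the 54 without the liver-gene libraries too. Cxcl5 stayed at or under 0.407 TPM in every mouse but the NCAC mouse with the few-gene library at 2 weeks, which had 1.17 TPM.

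**Figure D3:**
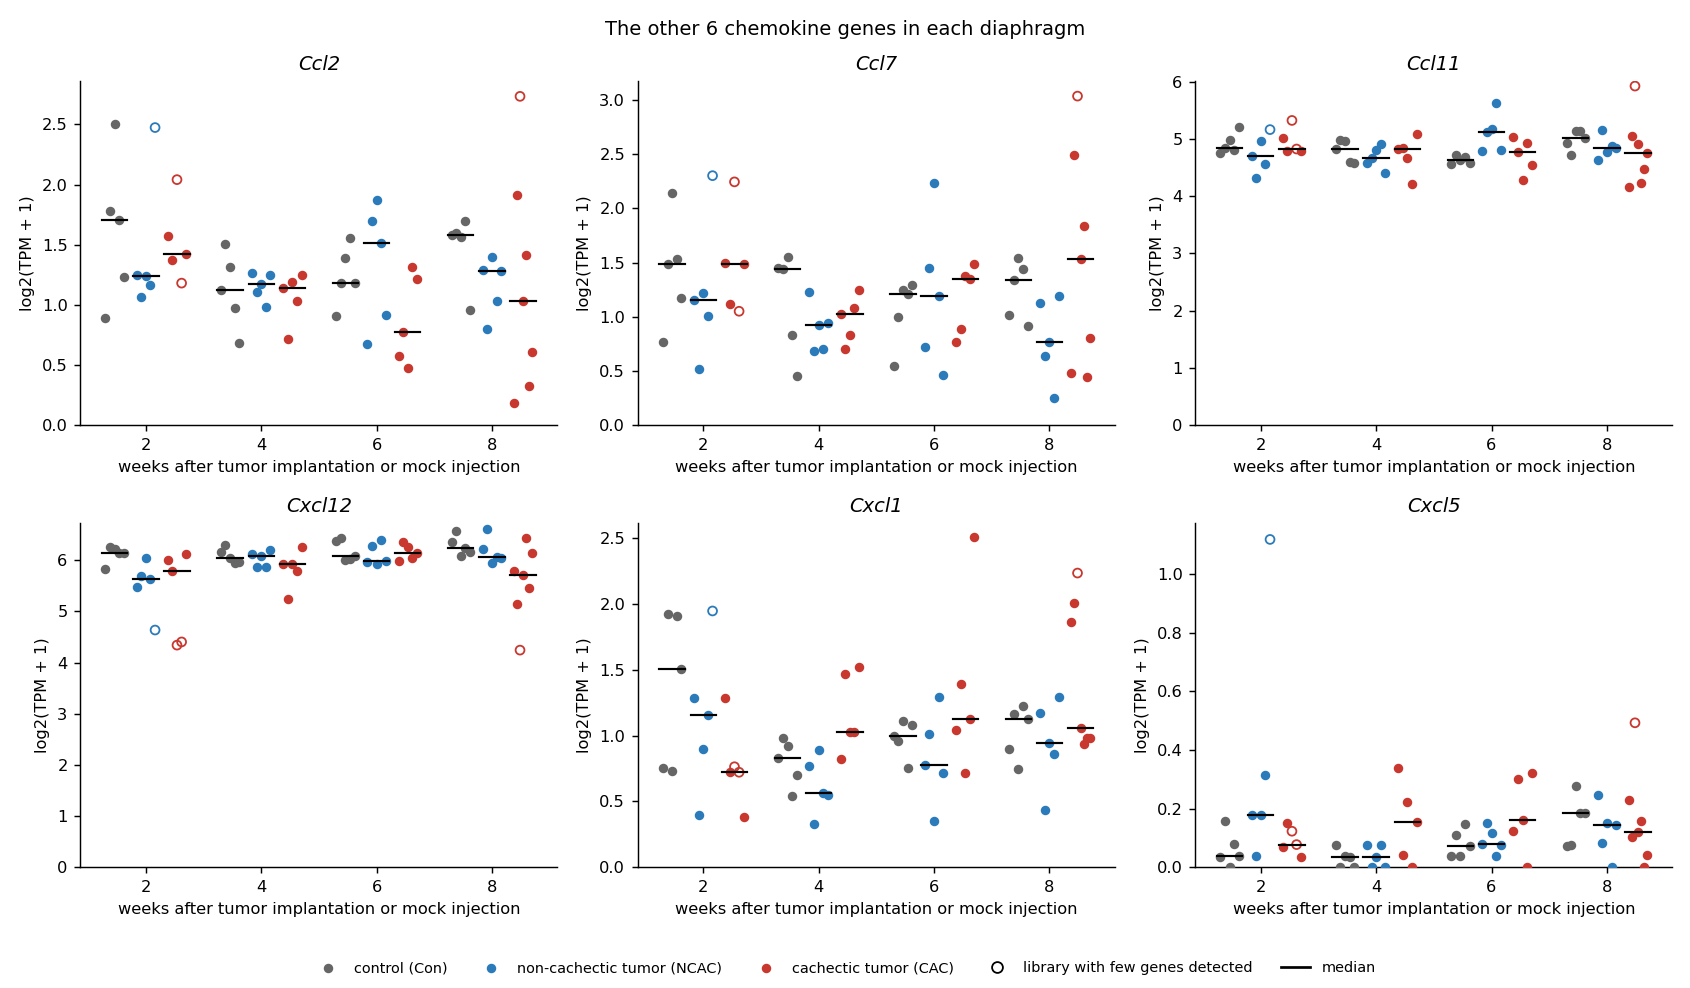
Ccl2, Ccl7, Ccl11, Cxcl12, Cxcl1 and Cxcl5 in each of the 62 diaphragms, as log2(TPM + 1), against weeks after implantation or mock injection, with control mice in grey, NCAC in blue, CAC in red, group medians as black bars and few-gene libraries as open circles. The groups overlap for all 6 genes at 4 weeks and 6 weeks except Ccl11 in NCAC against control mice at 6 weeks, and the few-gene libraries are the lowest values of Cxcl12.

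The deviations of single mice from the mean of their own group and time show which genes moved together from mouse to mouse. Over the 58 mice outside the few-gene libraries, Pearson's r was 0.86 for Ccl2 with Ccl7, the nearest neighbours of the cluster, 0.52 for Ccl8 with Ccl12, and 0.44 and 0.47 for Ccl8 with Ccl2 and Ccl7. Ccl11 had 0.18 to 0.31 with the other CC genes. Cxcl13 had 0.12 with Ccl8 and Cxcl14 0.16, against 0.36 and -0.28 over all 62 mice. With all 62 mice, Cxcl14 had -0.52 with Ccl2 and -0.54 with Ccl11, against -0.08 and -0.04 without the few-gene libraries. These are descriptions over mice that share the scaling to 1 total and some of them a group, and no test was made.

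**Figure D4:**
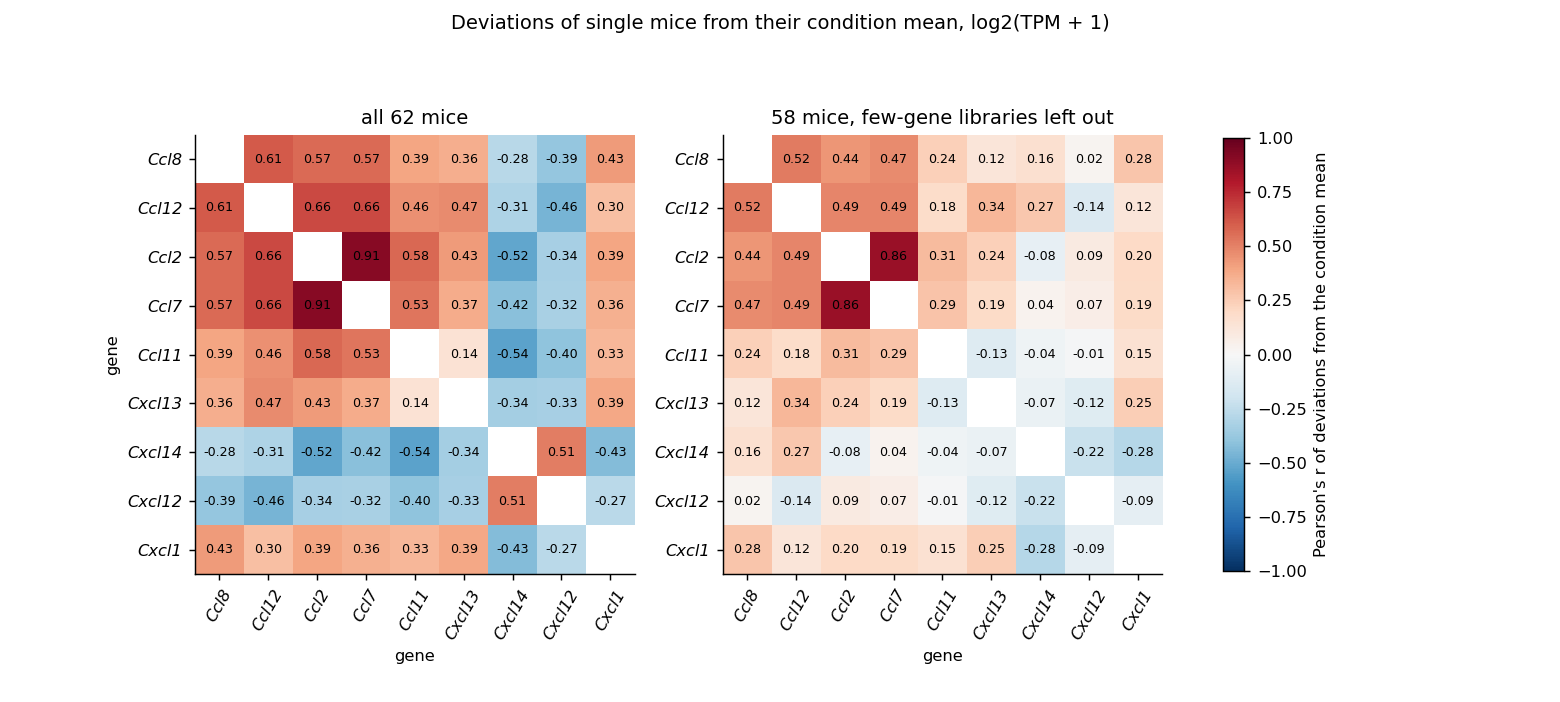
Pearson's r between the deviations of single mice from their condition mean in log2(TPM + 1), for each pair of the 9 tested genes, over all 62 mice (left) and over the 58 mice outside the few-gene libraries (right), from blue at -1 to red at 1. Ccl2 with Ccl7 is the deepest red cell in both panels (0.91 and 0.86), and the blue cells of Cxcl14 and Cxcl12 on the left are pale on the right.

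The deviation of Cxcl13 had r = 0.73 with that of the summed TPM of 5 B cell genes (Ms4a1, Cd79a, Cd79b, Pax5 and Cr2) over 62 mice, 0.69 over the 58 and 0.66 over the 54 mice that are left without the few-gene and liver-gene libraries as well. Among all tested genes its closest partner over the 58 mice was Marco (0.84), a scavenger receptor of macrophages, followed by immunoglobulin light chain genes (Igkv1-117 with 0.81, Igkv4-61 with 0.78). These partners were chosen after the values were seen. The B cell genes summed to 0.775 to 54.1 TPM across all mice, and their median was 10.5 TPM in control, 5.76 TPM in NCAC and 5.41 TPM in CAC mice at 6 weeks, with ranges that overlapped. Of the 4 B cell genes that passed the filter, 0 were called in CAC against control mice at 6 weeks and 0 at 8 weeks by limma, with 0 at an unadjusted p under 0.05 at both times. Calls over all genes were 5.62% higher and 1.17% lower at 6 weeks, and 6.65% and 8.12% at 8 weeks. The part of B cells in the Cxcl13 values was not tested.

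**Figure D5:**
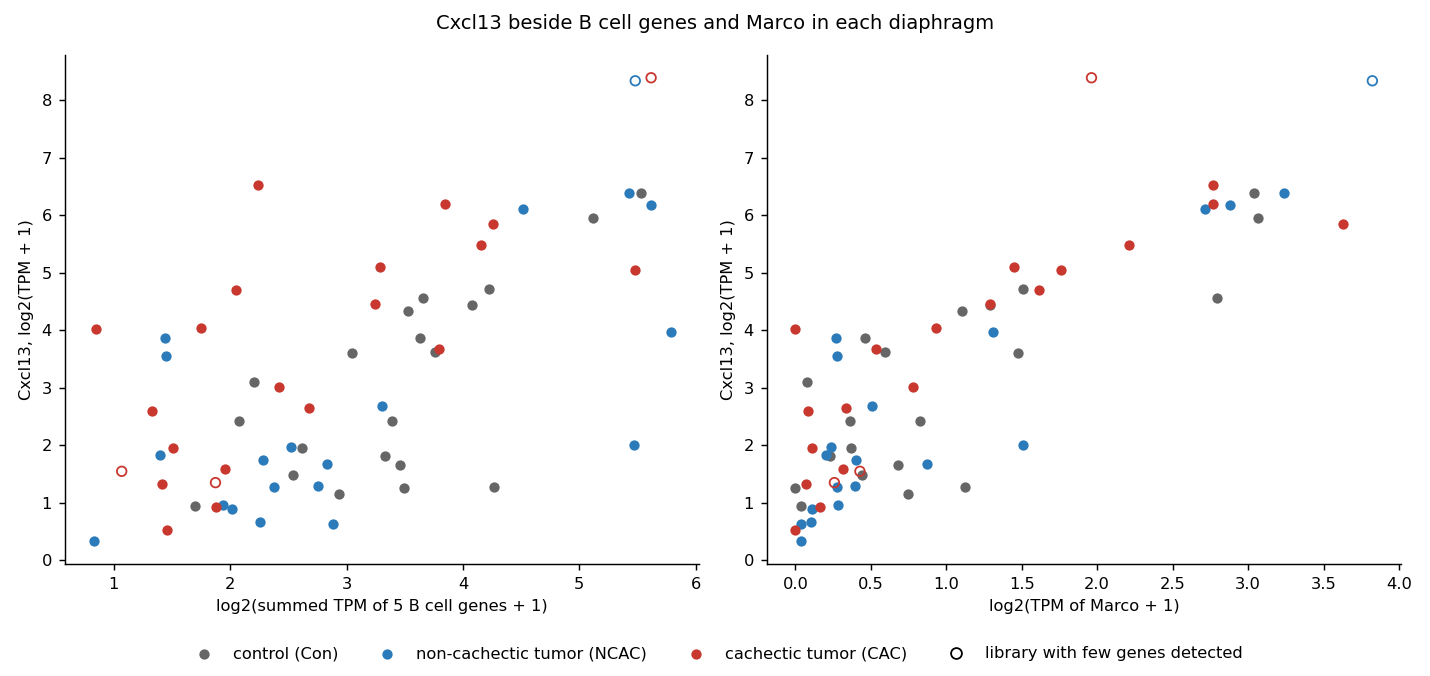
Cxcl13 in log2(TPM + 1) against the summed TPM of 5 B cell genes (left) and the TPM of Marco (right), both as log2 of the value plus 1, 1 point per diaphragm, with control mice in grey, NCAC in blue, CAC in red and few-gene libraries as open circles. Mice with high Cxcl13 tend to have high values on both x axes in every group, with Pearson's r of 0.73 for the B cell genes and 0.83 for Marco in deviations from the condition mean over 62 mice.

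For Ccl8 the closest partners in deviations over the 58 mice were Cd209e (0.72), Clec4a2 (0.70) and Clec4n (0.69), all C-type lectin receptor genes of myeloid cells, and the class II antigen presentation gene H2-Aa (0.67). With the 11 macrophage and monocyte markers of a list, summed, Ccl8 had r = 0.34 over the 58 mice and 0.47 over all 62. The value was as high with the B cell sum (0.34 and 0.46), while the neutrophil sum had 0.19 and 0.57 and the skeletal muscle sum -0.42 and -0.61. These partners were chosen after the values were seen. Between groups the macrophage sum was 222 to 447 TPM in CAC mice at 6 weeks against 137 to 214 TPM in control and 151 to 342 TPM in NCAC mice. Of its 11 genes, 4 were called higher at 6 weeks (Cd163, Mrc1, C1qb and Ly6c2, by 1.68, 1.23, 0.98 and 0.79 in log2(TPM + 1)) and 6 at 8 weeks, with 0 lower, and none was at 0 in all mice of a group. Among all genes, 5.62% were called higher and 1.17% lower at 6 weeks, and 6.65% and 8.12% at 8 weeks. The 7 neutrophil genes summed to 16.4 to 31.1 TPM in CAC mice at 6 weeks, 4.06 to 12.8 TPM in control and 2.47 to 18.4 TPM in NCAC mice. Of the 4 that passed the filter, limma called 0 at 6 weeks against control (2 at an unadjusted p under 0.05). At 8 weeks limma called 2 of these 4 higher against control and 0 lower. The 10 genes of fibro-adipogenic progenitors had a median sum of 1631 TPM in CAC and 1078 TPM in control mice at 6 weeks, with overlapping ranges. Of these genes 2 were called higher (Dcn and Ly6a) and 0 lower, with a median difference of 0.12, beside 0.17 for all genes. At 8 weeks 2 were called higher and 3 lower, with a median difference of -0.35. For 4 lymphatic endothelial genes the median sums at 6 weeks were 86.0 and 41.7 TPM, with 0 called by limma and 2 at an unadjusted p under 0.05. The part of these cell types in the chemokine values was not tested. In whole muscle, more cells of a type and more RNA per cell cannot be told apart.

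Compared by their 12 group medians, the genes most like Ccl8 among all those tested were Syf2 (Pearson's r = 0.99), Prom1 (0.99), 4933434E20Rik (0.99), 1110034G24Rik (0.98) and Tln2 (0.98). The median of Prom1 was 1.46 TPM in control and 3.86 TPM in CAC mice at 6 weeks, and that of Tln2 35.7 and 53.8 TPM. The genes most like Cxcl13 were Vat1l (0.92), Sdhaf1 (0.88), Tnfaip8l2 (0.86), Ptger4 (0.86) and Parl (0.86). These are descriptions over 12 medians among 13578 genes, with no p.

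Most signaling chemokine receptors did not pass the filter. Of 17 signaling chemokine receptors, 5 passed the filter (Ccr1, Ccr2, Cxcr4, Cxcr5 and Cx3cr1), and limma called 0 of them in CAC against control mice at 6 or 8 weeks, with 0 and 2 at an unadjusted p under 0.05. Calls over all genes were 5.62% higher and 1.17% lower at 6 weeks, and 6.65% and 8.12% at 8 weeks. Ccr8 had medians of 0.0973 TPM in CAC and 0.0865 TPM in control mice at 6 weeks. Ccr2 had 2.97 and 1.89 TPM, Cxcr4 3.64 and 5.25 TPM and Cxcr5, the receptor of Cxcl13, 0.474 and 0.623 TPM.

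Atypical receptors bind chemokines without the usual signal and clear or carry them. Of 5, 2 were called higher in CAC than in control mice at 6 weeks, where 5.62% of all genes were called higher and 1.17% lower. Ackr1, found on venules and red cells, had 8.02 to 15.1 TPM in CAC and 1.34 to 3.35 TPM in control mice, a difference of 1.77 ± 0.18 (limma adjusted p = 1.55e-09). Ackr2, a scavenger of inflammatory CC ligands, differed by 0.85 ± 0.26 (limma adjusted p = 0.0347). At 8 weeks, where 6.65% of all genes were called higher and 8.12% lower, Ackr1 was called (1.38 ± 0.17, limma adjusted p = 6.24e-08) and the other 4 were not.

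Among 7 tested CC ligand genes outside the 10, Ccl9 was called higher at 6 weeks, by 1.29 ± 0.37 (limma adjusted p = 0.0231), with 10.8 to 22 TPM in CAC and 4.34 to 8.04 TPM in control mice. At 8 weeks Ccl9 (1.43 ± 0.34) and Ccl6 (1.75 ± 0.42) were called, both made by myeloid cells. Of 8 tested CXC, CX3C and XC ligand genes, 0 were called at 6 weeks (2 at an unadjusted p under 0.05) and 2 at 8 weeks, the platelet chemokines Pf4 (1.04 ± 0.28) and Ppbp (1.5 ± 0.41). The median difference at 6 weeks was 0.57 for the 7 and -0.01 for the 8, beside 0.17 for all genes. Calls over all genes were 5.62% higher and 1.17% lower at 6 weeks, and 6.65% and 8.12% at 8 weeks.

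Of 17 tested genes of inflammatory signaling, 5 were higher in CAC than in control mice at 6 weeks and 0 lower, with a median of 0.58. They were Socs3, an inhibitor induced by cytokine receptors (2.85 ± 0.38), Cebpd (1.71 ± 0.48), Stat3 (1.31 ± 0.36), Bcl3 (1.26 ± 0.33) and Nfkbiz (0.71 ± 0.19). Socs3 had 27.7 to 61.7 TPM in CAC and 3.67 to 6.41 TPM in control mice. At 8 weeks 5 were higher and 1 lower, beside 6.65% and 8.12% of all genes (5.62% and 1.17% at 6 weeks). Il1b (0.63 ± 0.15), Nfkbia (0.80 ± 0.26), Bcl3 (0.99 ± 0.30), Socs3 (2.17 ± 0.35) and Cebpd (2.37 ± 0.45) were higher, and Tnfaip3, an inhibitor of NF-kB, was lower (-0.41 ± 0.11). Without the few-gene libraries 10 of the 17 were higher at 6 weeks and 10 at 8 weeks, while the genes called higher in the whole table went from 763 to 3651 and from 903 to 3015 of 13578.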

How the data were processed

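RNA was extracted from the skeletal muscle portion of the diaphragm and sequenced as paired reads on an Illumina NovaSeq instrument. Per the study's methods, reads were trimmed, aligned to the mouse genome (GRCm38, mm10 in the submitters' processing notes) and summarised in CLC Genomics Workbench, and the authors deposited TPM per gene, 1 column per mouse. The labels and the methods name different library kits, so the use of strand is uncertain, and the annotation release and read depth are not given in the sources used here.

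From the deposited TPM, log2(TPM + 1) was computed for the 13578 genes that reached 1 TPM in 5 or more mice. A mean per group and time (12 conditions, 62 mice) was fitted with limma 3.58.1 in R 4.3.3 (empirical Bayes with a trend). P-values were adjusted by Benjamini-Hochberg over all these genes, and called means an adjusted p under 0.05. All CAC comparisons of a time share mice. The fit was tested on simulated data. Exact permutation tests were two-sided. Members, lists and alternatives were chosen with earlier results of these data known. Text names the 10 genes, list genes called at 6 or 8 weeks in CAC against control mice, and the 5 genes most like Ccl8 and Cxcl13. Alternatives were a pseudocount of 0.1, no filter, median-ratio and quantile scaling, array weights, Dunn's test (the study's own), the replicate number as a block, only the groups compared, and libraries left out. Same-numbered mice of a time did not vary together (60 pairs, median r -0.03, 18 over 0.1), so the numbers were not taken to pair mice. Some list genes are not reported here, and sums and counts leave them out.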

Additional observations from a re-analysis of the deposited data

Results flagged for a closer look

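In 9 of 120 sets of mice (10 genes, 12 groups and times), 1 mouse lay far from the others by Dixon's test on log2(TPM + 1), where chance gives about 1 in 20, and 5 of the 9 were in few-gene libraries. In the few-gene library of NCAC mice at 2 weeks (replicate 5), Ccl8 was at 70.3 TPM, Ccl2 at 4.55 TPM and Cxcl5 at 1.17 TPM, each the highest of its group, and Cxcl14 was the lowest at 10.8 TPM. Cxcl14 was also the lowest in the few-gene library of CAC mice at 8 weeks (replicate 3), at 3.25 TPM, and in NCAC replicate 3 at 8 weeks, at 14.5 TPM. Ccl12 was highest in CAC replicate 4 at 4 weeks, at 5.54 TPM. Ccl2 was lowest in control replicate 5 at 8 weeks, at 0.941 TPM, and Cxcl12 in control replicate 1 at 2 weeks, at 55.8 TPM.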

How the results depend on the processing

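The differences of Ccl8 (4 and 6 weeks), Ccl12 and Cxcl14 (6 weeks) against control and NCAC mice, of Cxcl13 against NCAC mice at 6 weeks and of Cxcl12 against control at 2 weeks kept their direction in all 21 alternatives each, while some differences of the 9 genes that were not called changed sign. Ccl8 at 6 weeks was called in 20 of 21 alternatives against control (2.55 to 3.28) and in 20 of 21 against NCAC mice (2.37 to 3.24), and lost only under Dunn's test (adjusted p = 0.108 and 0.147). For CAC against control mice at 2 weeks, the count of called genes among the 9 went from 1 to 0 under median-ratio scaling, quantile normalization, array quality weights, Dunn's test, the groups compared alone, and without the few-gene, the liver-gene or both sets of libraries (the last chosen after seeing the data). At 4 weeks it went from 0 to 1 (Ccl8), against control and against NCAC mice, under array quality weights, the groups compared alone, and without the few-gene or both sets of libraries. At 6 weeks against control it went from 2 to 1 (Ccl8) under median-ratio scaling and without the liver-gene libraries, to 0 under Dunn's test, and to 3 (with Cxcl14) under array quality weights, with the groups compared alone and without the few-gene or both sets of libraries. Quantile normalization gave 2, with Cxcl14 in place of Ccl12. Against NCAC mice at 6 weeks it went from 3 to 1 (Ccl8) with no filter and without the liver-gene libraries, to 2 with a pseudocount of 0.1 (Ccl8 and Cxcl13) and under median-ratio scaling (Ccl8 and Cxcl14), to 0 under Dunn's test, to 4 (with Cxcl14) with the groups compared alone and without the few-gene or both sets of libraries, and to 5 (with Cxcl14 and Ccl2) under array quality weights. Quantile normalization gave 3, with Cxcl14 in place of Ccl12. Array quality weights gave 1 for NCAC against control mice at 2 weeks and 1 for the change from 4 to 6 weeks. Over all 13578 genes, CAC against control mice at 4 weeks gave 2 higher and 1 lower. These became 207 and 44 without the few-gene libraries and 277 and 58 without both sets. Against NCAC mice 4 and 0 became 255 and 48, and 341 and 54. At 6 weeks without both sets, 4704 were higher and 551 lower against control. Against NCAC mice 2996 and 704 were called without the few-gene libraries and 3916 and 642 without both sets. Such counts were not made with array weights or the groups compared alone. The causes were not tested.

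Leaving out 1 mouse at a time gave 0 to 2 calls for CAC against control mice at 2 weeks, 0 to 0 at 4 weeks and 1 to 2 at 6 weeks, and 0 to 1, 0 to 0 and 1 to 3 against NCAC mice. At 2 weeks the 2 calls were Cxcl1 and Cxcl12, without CAC replicate 1 or Con replicate 1 or 3, and the 1 call against NCAC mice was Cxcl13, without CAC replicate 2. NCAC against control mice gave 0 to 0 at each time, and the change from 4 to 6 weeks 0 to 0. With the replicate number as a block, the counts were 1, 0 and 2 against control and 0, 0 and 3 against NCAC mice at 2, 4 and 6 weeks, and no call among the 9 genes changed. Over all genes, CAC against control mice gave 763 higher and 159 lower at 6 weeks, but 467 and 545 under median-ratio scaling, 530 and 729 under quantile normalization and 3651 and 582 without the few-gene libraries. The median difference of all genes at 2 weeks was -0.42, and 0.03 under quantile normalization. At 2 weeks 192 and 3781 became 1217 and 1169 under median-ratio scaling and 0 and 0 without the few-gene libraries. Against NCAC mice at 6 weeks 581 and 213 became 468 and 572 under median-ratio scaling. Read depth is not held by TPM.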
